A study of Auxenochlorella pyrenoidosa with 12 samples.

Results

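In the green alga Auxenochlorella pyrenoidosa, 157 of 16413 assembled transcripts (0.957%) held a steady level in the 3 groups given nitrate and stood at 33.3% of that level or less in the group given none. They were chosen by their own levels. Counts were divided by the library's sum and given as CPM, the share of a library on one fixed scale, and means were taken over the 3 libraries of each group. A transcript was taken when its means in N0.5, N1 and N1.5 were all at least 5 CPM, when the largest of these was at most 1.4 times the smallest, and when its mean in N0 was at most 33.3% of each of them. All 4 groups entered this choice, so the levels below describe the chosen transcripts and are no evidence that nitrate sets them apart.

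The cells were strain SHOU-1002, a unicellular alga, and the groups are N0, N0.5, N1 and N1.5, grown with 0, 0.5, 1 and 1.5 g/L NaNO3, with N1.5 as the control and 3 libraries each. Per the design text, the libraries within a group are biological repetitions. Poly(A)-selected RNA was sequenced, and library totals were between 22027761 and 24383226 estimated counts. The labels name no harvest time, growth stage or batch, so these cannot be told apart from the groups. CPM is a share of a library, so less RNA of a transcript per cell and more RNA of other transcripts cannot be told apart.

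As background, green algae take up nitrate, reduce it to nitrite and then to ammonium, and build the ammonium into glutamine and glutamate. Cells deprived of nitrogen commonly slow their growth, take down pigments and proteins of photosynthesis and ribosomes, and store carbon as starch and triacylglycerol, the storage lipid for which Chlorella-like algae are studied. The files do not pair the assembled transcripts with gene names, functions or sequences. The 157 transcripts are therefore described by level, course over nitrate, length and name, and 2 of them are identified by name.

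The 157 transcripts were reduced in N0 rather than absent from it. Their mean level in N0 ranged between 0.80 and 479 CPM with a median of 6.41 CPM, against medians of 31.9 CPM in N0.5, 28.5 CPM in N1 and 30.5 CPM in N1.5. None had a count of 0 in an N0 library, and the lowest estimated count of any of them in any N0 library was 12.3. The median transcript kept 24.8% of the smallest of its 3 other means, a 4.03-fold difference, and the transcript with the deepest fall kept 6.06%, a 16.5-fold difference. By depth, 2 of the 157 stood at or under 10% of the smallest other mean, 34 between 10 and 20%, 45 between 20 and 25%, 44 between 25 and 30%, and 32 above 30%.

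All 3 N0 libraries lay below all 9 other libraries for each of the 157 transcripts, which was so for 21.1% of all 16413 transcripts and for 34.7% of the 5160 described below as steady with nitrate. All 157 passed edgeR's quasi-likelihood test as lower in N0 than in N1.5 (31.2% of the 15429 tested transcripts were called lower), lower in N0 than in N1 (29.7% of all tested) and lower in N0 than in N0.5 (33.1% of all tested), at an adjusted p under 0.05. The choice used these same contrasts, so nothing is read from the counts. After TMM scaling, the median log2 fold change of the 157 was -1.97 in N0 against N1.5, -1.97 against N1 and -2.11 against N0.5, with medians of -0.01, -0.01 and -0.02 over all tested transcripts. These 3 comparisons share the N0 libraries.

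**Figure D1:**
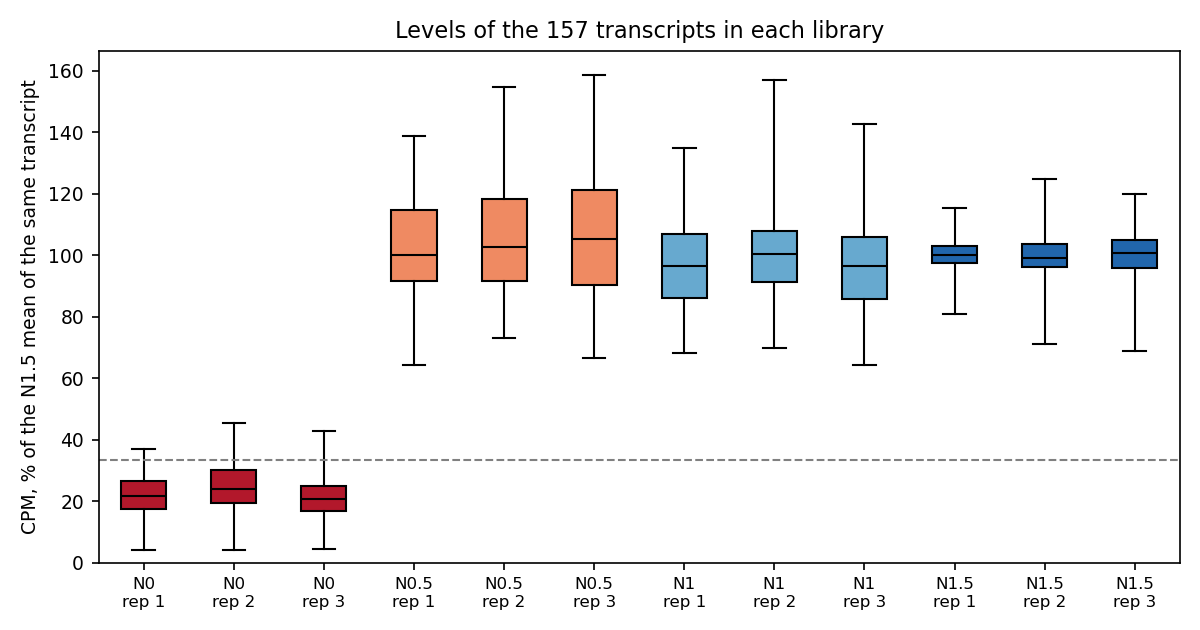
CPM of the 157 transcripts in each of the 12 libraries, as a percentage of the same transcript's N1.5 mean. Boxes hold the middle 50% of transcripts with the median as a line, whiskers reach the lowest and highest transcript, and the dashed line marks 33.3%. The medians lie between 20.9 and 24.0% in the 3 N0 libraries and between 96.5 and 105% in the 9 others.

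By library, the median transcript stood at 21.9, 24.0 and 20.9% of its N1.5 mean in N0 replicates 1, 2 and 3. It stood at 100.2, 103 and 105% in N0.5, and at 96.5, 100.3 and 96.6% in N1. In N0 the highest single value was 45.3% of the N1.5 mean, in replicate 2, and in N0.5 the lowest was 64.2%, in replicate 1, so on this scale the N0 libraries and the others did not meet. N0 replicate 2 was the highest of the 3 N0 libraries for 93 of the 157 transcripts (59.2%). It was so for 56.1% of all transcripts at 5 CPM or more in the groups with nitrate, so the direction of this lean in N0 is shared with them. Its size was larger in the 157. The median log2 deviation from the N0 mean was 0.129 in replicate 2 and -0.077 in replicate 3. Over all these transcripts it was 0.053 and -0.024. In N1.5 the leans differed: replicate 3 was highest for 45.9% of the 157 and 30.7% of all these transcripts. N1.5 replicate 2 was highest for 29.3 and 45.9%. Together the 157 took 0.229% ± 0.008 of the counts in N0, 1.00% ± 0.014 in N0.5, 0.961% ± 0.006 in N1 and 1.01% ± 0.034 in N1.5 (SD, n = 3 libraries each).

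The most abundant of them was TRINITY_DN7303_c0_g3_i2_4, with an estimated length of 3522 bases. It had 506, 428 and 504 CPM in the N0 libraries. It had 1478, 1458 and 1436 CPM in N0.5, 1709, 1488 and 1743 CPM in N1, and 1810, 1528 and 1983 CPM in N1.5. The N0 libraries stood well under the lowest of the others, while the groups with nitrate overlapped in part. In N0 the transcript kept 32.9% of its N0.5 mean, close to the limit of the choice. Its means were 479 ± 44.7 CPM in N0 and 1774 ± 230 CPM in N1.5 (SD, n = 3 each). The log2 fold change against N1.5 was -1.71 ± 0.12 (SE) by edgeR after TMM scaling, and -1.89 with library totals, the scale of these means. This single transcript held 17.5% of the summed N1.5 level of the 157, and the 10 most abundant held 39.1%.

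TRINITY_DN5119_c0_g1_i3_1, with an estimated 1684 bases, had the deepest fall among those at 20 CPM or more in all 3 groups with nitrate. It had 9.50, 10.7 and 6.42 CPM in the N0 libraries. It had 120, 131 and 137 CPM in N0.5, 135, 120 and 130 CPM in N1, and 145, 141 and 146 CPM in N1.5. Every library with nitrate was more than 10 times above every N0 library, and N0.5 and N1 covered the same range. The N0 mean of 8.86 ± 2.19 CPM (SD, n = 3) was 6.91% of the smallest other mean. The log2 fold change against N1.5 was -3.85 ± 0.13 (SE) by edgeR after TMM scaling, and -4.03 with library totals.

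The next most abundant transcripts differed in how they ran over the groups with nitrate. The second most abundant had 106, 118 and 107 CPM in N0, 394, 415 and 439 CPM in N0.5, 392, 352 and 381 CPM in N1, and 335, 330 and 339 CPM in N1.5. It was thus highest in N0.5 and lowest of the 3 in N1.5, and in N0 it kept 33.0% of the N1.5 mean, close to the limit of the choice. The third had 65.6, 80.5 and 70.0 CPM in N0, 352, 349 and 374 CPM in N0.5, 310, 379 and 334 CPM in N1, and 411, 418 and 404 CPM in N1.5. The fourth was flatter, with 36.5, 36.6 and 37.4 CPM in N0, 242, 236 and 240 CPM in N0.5, 236, 251 and 261 CPM in N1, and 258, 227 and 282 CPM in N1.5. Its 3 groups with nitrate overlapped, and its N0 libraries agreed to within 1 CPM. The fifth had 22.7, 22.0 and 22.8 CPM in N0, 227, 219 and 205 CPM in N0.5, 191, 195 and 199 CPM in N1, and 236, 216 and 242 CPM in N1.5, so N0 stood at 9.71% of N1.5. The sixth was highest in N0.5: it had 41.0, 54.1 and 42.8 CPM in N0, against 209, 240 and 273 CPM in N0.5, 194, 208 and 199 CPM in N1, and 182, 188 and 170 CPM in N1.5.

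The deepest fall of all belonged to a scarce transcript, with 0.65, 0.70 and 1.05 CPM in N0, 14.1, 16.9 and 12.7 CPM in N0.5, 12.2, 13.3 and 14.2 CPM in N1, and 16.3, 16.6 and 15.5 CPM in N1.5. Its N0 libraries held as few as 15.8 estimated counts, so its N0 level is known less exactly than that of TRINITY_DN5119_c0_g1_i3_1. The third deepest had 4.55, 5.65 and 10.7 CPM in N0, 96.8, 93.4 and 62.9 CPM in N0.5, 58.4, 70.1 and 60.7 CPM in N1, and 82.8, 79.3 and 91.0 CPM in N1.5. N0 replicate 3 was the high one of its N0 libraries, and N0.5 replicate 3 the low one of N0.5.

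**Figure D2:**
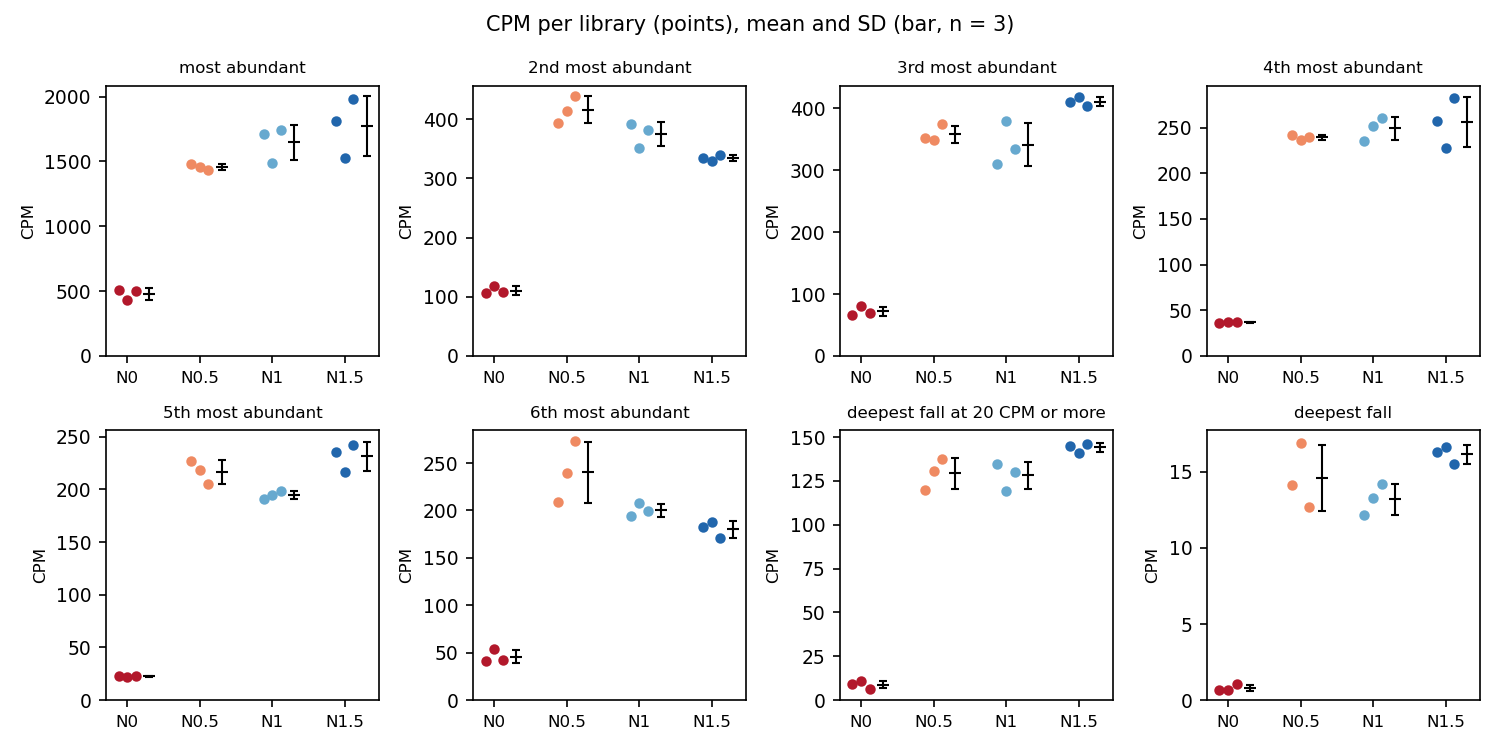
CPM in each library (points, from left to right replicates 1, 2 and 3) with mean and SD (bar, n = 3) for the 6 most abundant of the 157 transcripts and the 2 with the deepest fall. The vertical axes are linear, start at 0 and differ between panels. In each panel the 3 N0 points lie below all others.

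The members are next given by level. The rule capped the share kept in N0 at 33.3% at every level, so the medians of that share only describe the choice. At 5 to 20 CPM there were 52 of them, which kept a median of 25.8% of the smallest other mean. The 83 at 20 to 100 CPM kept 24.8%, and the 22 at 100 CPM or more kept 23.8%. Those 22 held 55.0% of the summed N1.5 level of the 157. Per length, on the FPKM scale (counts scaled to transcript length and library total), the median was 4.94 in N0, 23.4 in N0.5, 22.0 in N1 and 22.0 in N1.5. On that scale the most abundant transcript stayed first, at 136 FPKM in N0 and 505 FPKM in N1.5.

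The pool from which they came was the 5160 transcripts that met the level and steadiness limits over N0.5, N1 and N1.5, of which the 157 were 3.04%. In this pool N0 stood at a median of 88.3% of N1.5, and 3361 transcripts were within 1.4 times of N1.5 in N0. N0 stood at 50% of each other mean or less in 425, and at 2 times each or more in 110. At a difference of 3 times, 157 were lower and 32 higher. At 5 times, 36 were lower and 8 higher, and at 10 times 2 were lower and 1 higher. These are counts of means on library totals, with no test. On other scalings fewer met the rule, 110 with TMM and 102 with RLE size factors. The transcripts at 3 times or more were not counted on those scalings, so the balance of lower and higher is given for library totals only. The members were a larger share of scarce than of abundant steady transcripts: 6.12% of 850 at 5 to 20 CPM, 2.57% of 3232 at 20 to 100 CPM and 2.04% of 1078 at 100 CPM or more.

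**Figure D3:**
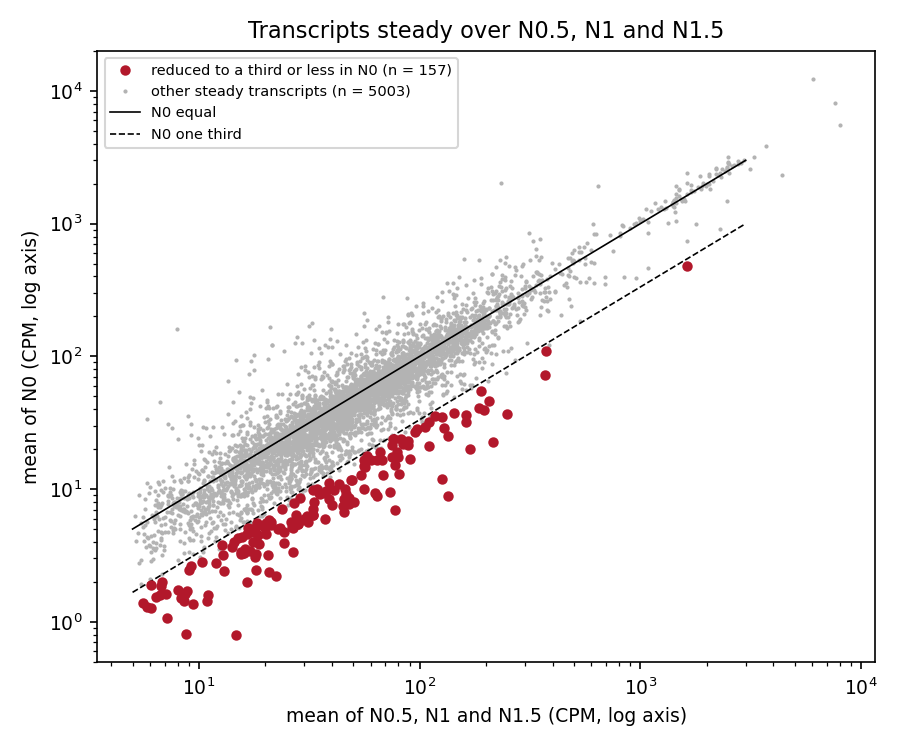
Mean CPM in N0 (vertical, log axis) against the mean of N0.5, N1 and N1.5 (horizontal, log axis) for the 5160 steady transcripts. The 157 reduced transcripts are in red, the other 5003 in grey, the solid line marks equal levels and the dashed line 33.3%. The red points follow the dashed line from below over the whole range of levels.

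The limits cut through a continuous range. The members nearest the limit on N0 kept 33.1, 33.1 and 33.2% of the smallest other mean, and the nearest transcripts outside kept 33.5, 33.5 and 33.7%. For steadiness, the largest over the smallest mean was 1.386, 1.389 and 1.390 just inside and 1.402, 1.406 and 1.410 just outside. For level, the smallest of the 3 means was 5.12, 5.22 and 5.49 CPM just inside and 4.83, 4.97 and 4.98 CPM just outside.

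Scaling moved the number of members. CPM by library totals puts most transcripts slightly lower in N0, as the median of 88.3% in the steady pool shows. With CPM after RLE size factors 102 transcripts met the rule, of which 96 were among the 157, and with TMM 110 did, of which 106 were. By edgeR after TMM scaling, the most abundant member had a log2 fold change of -1.51 against N0.5. The second most abundant had -1.42 against N1.5. Both are smaller falls than one to 33.3%. Requiring every N0 library to stand at 33.3% or less of every other library, in place of the means, left 91 of the 157.

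The choice was repeated with replicate number 1, 2 or 3 held out in all groups, and the held-out libraries were then read. With replicate 1 held out, 150 transcripts were chosen, and in the held-out libraries N0 was below each of the other 3 in 150 and at 33.3% of each or less in 126. With replicate 2 held out, 160 were chosen, of which 160 and 114 did so. With replicate 3 held out, 149 were chosen, of which 149 and 131 did so. The exact limit was missed by 18 to 46 of those chosen. Over all transcripts that met the level and steadiness limits on the same libraries, N0 was below each of the other 3 in 52.1, 44.8 and 51.2% in held-out replicates 1, 2 and 3, and at 33.3% of each or less in 2.79, 2.56 and 3.40%. The median share kept in N0 was 25.7, 28.8 and 23.4% in held-out replicates 1, 2 and 3, against 24.5, 24.0 and 25.4% in the libraries that chose them, and 98.5, 104 and 99.1% over those steady transcripts in the held-out libraries. The steadiness limit of 1.4 times, read in 1 library a group, was met by 124, 125 and 106. With 1 held-out library per group there is no test.

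Within the groups with nitrate the 157 were steady by choice, to a median of 1.2 times between the largest and smallest mean, and 34 of them to 1.1 times or less. The steadiest had 2.11, 1.39 and 2.17 CPM in N0, 7.49, 5.74 and 5.05 CPM in N0.5, 6.83, 5.69 and 5.77 CPM in N1, and 5.94, 5.52 and 6.68 CPM in N1.5. Its 3 means with nitrate differed by less than the spread between libraries.

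The small differences that the limit allowed were not spread evenly over the 3 groups. N0.5 was the highest group for 73 of the 157 (46.5%), N1.5 for 55 (35.0%) and N1 for 29 (18.5%). Over the 5160 steady transcripts these shares were 34.1, 35.3 and 30.7%. In edgeR's quasi-likelihood test at an adjusted p under 0.05, 49 of the 157 (31.2%) were higher in N0.5 than in N1.5 and 8 (5.10%) lower. Over all tested transcripts 30.6% were called higher and 31.3% lower. The share called higher was thus near that over all tested, and the share called lower was smaller. Among the 5003 other steady transcripts 27.3% were called higher and 22.1% lower. With library totals the split was 31 higher (19.7%) and 17 lower (10.8%) among the 157, and 17.9 and 32.9% among the other steady transcripts. In N0.5 against N1, 54 of the 157 (34.4%) were higher and 5 (3.18%) lower, with 29.1 and 31.3% called over all tested. Among the other steady transcripts 24.6% were called higher and 22.8% lower. With library totals 40 of the 157 (25.5%) were higher and 8 (5.10%) lower, and 16.5 and 31.1% of the other steady transcripts. In N1 against N1.5, 0 of the 157 were higher and 10 (6.37%) lower, with 3.97 and 3.6% called over all tested. Among the other steady transcripts 2.60% were higher and 1.18% lower. By DESeq2, 1 of the 157 was higher and 13 lower (8.28%), and 3.68 and 2.10% of the other steady transcripts. The count in N1 was 2 to 9 when 1 library was left out, and leaving out N1 replicate 3, N1.5 replicate 1 or N1.5 replicate 3 gave 2 each, leaving out N1 replicate 1 gave 3 and leaving out N1.5 replicate 2 gave 4. The rule bounds all of these differences, so they describe the members only.

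The depth of the fall was set beside the group in which a member was highest. The 73 highest in N0.5 kept a median of 24.8% of the smallest other mean, the 29 highest in N1 kept 28.0%, and the 55 highest in N1.5 kept 23.6%. Both transcripts under 10% were among the 55 highest in N1.5. Their median level was 32.8 CPM for those highest in N0.5, 26.6 CPM for those highest in N1 and 49.1 CPM for those highest in N1.5.

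Transcripts just as reduced in N0 but not steady were more numerous. At 5 CPM or more in N0.5, N1 and N1.5, 393 of 10329 transcripts had N0 at 33.3% or less of each other mean. Of the 393, 236 exceeded the limit of 1.4 times. That limit was met by 5160 of the 10329, the pool of the 157. Of these 236, N0.5 was the highest of the groups with nitrate in 188 and the lowest in 39. The limit on N0 also applied to the N0.5 mean, which works against transcripts already low in N0.5. The same share over all unsteady transcripts was not taken, so nothing is read from these counts. Against N1.5 alone, 716 transcripts at 5 CPM or more in N1.5 had N0 at 33.3% of it or less. Of the 559 that are not among the 157, N0.5 was below N1.5 by more than 1.4 times in 233 and above it by more than 1.4 times in 194.

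The rule used group means and not the spread between libraries. The relative spread between libraries, the SD divided by the mean, had a median of 14.5% in N0 over the 157, against 6.72% over the 5003 other steady transcripts. In N0.5 it was 7.36% for the 157 and 4.82% for the others, in N1 6.40 and 5.73%, and in N1.5 6.04 and 5.32%. The 559 other reduced transcripts had medians of 13.7% in N0, 8.93% in N0.5, 8.03% in N1 and 7.72% in N1.5, so their medians with nitrate were above those of the 157. The N0 levels of the 157 rest on fewer counts than their other levels. The part of count number in this spread was not tested. Deviations of single libraries from their group mean had a median Pearson's r of 0.12 over pairs of the 157 and 0.079 over pairs of the other steady transcripts, a description across transcripts of the same 12 libraries.

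In length the 157 lay between 352 and 4159 bases with a median of 1632, against 1787 for the other 5003 steady transcripts and 1525 for the 559 other reduced ones. The middle 50% of the 157 spanned 1170 to 2123 bases, and that of the other steady ones 1278 to 2522 bases, so the ranges overlapped widely. Lengths were derived from counts, FPKM and the library sums of estimated counts. They were not whole numbers of bases: members had 1125.21, 1126.1 and 1126.98, for example. The total behind the deposited FPKM may thus differ from these sums. All lengths here can be compared with each other, but they are not exact in bases.

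The names carry a last number between 1 and 4 after the parts that Trinity, a transcript assembler, gives to a contig. No Trinity gene name occurred more than once with the same last number among the 16413. The transcripts with the same last number are called a series here. The meaning of the number is not given in the sources used here. Of the 157, 37 bear the number 1, 29 the number 2, 58 the number 3 and 33 the number 4. As a share of the steady transcripts of each series these are 2.56, 2.37, 4.35 and 2.85%. Of all transcripts of series 1, 2, 3 and 4, the 157 were 0.791, 0.740, 1.38 and 0.914%, and the 559 other reduced transcripts were 2.74, 3.50, 4.42 and 2.99%. Series 3 was highest for both, while series 2 was lowest for the 157 and not for the 559. Of the 41 transcripts found nearly only in N0, series 3 held 3, where series 1, 2 and 4 held 11, 14 and 13. Of the steady transcripts at 3 times each other mean or more in N0, series 1, 2, 3 and 4 held 8, 11, 10 and 3, so series 3 was not low there. These shares are a description with no test. The part of the name series in the choice of members was not tested.

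**Figure D4:**
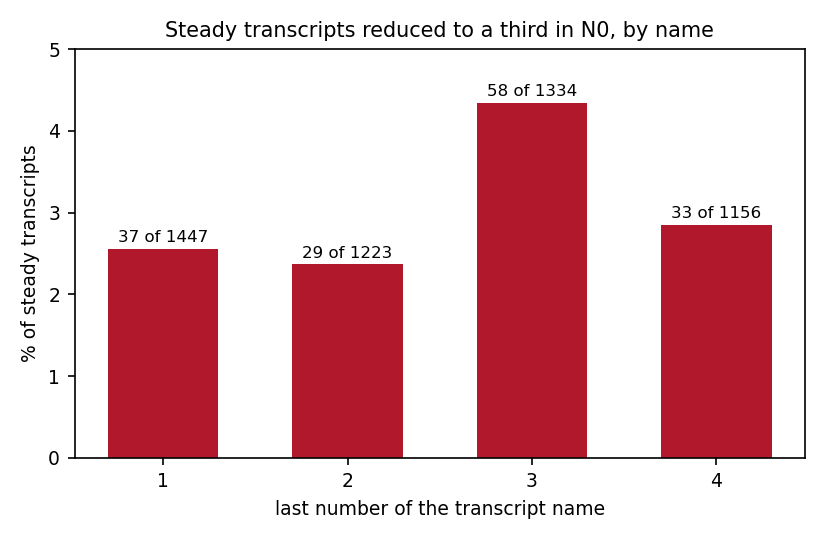
Share of the steady transcripts in each name series that fell to 33.3% or less in N0. Bars start at 0, and the numbers above give the reduced transcripts of all steady ones. Series 3 stands at 4.35% and the other series between 2.37 and 2.85%.

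All 157 have different Trinity gene names. Of them, 82 share the gene name, with another last number, with 107 transcripts outside the 157, and 100 of these 107 could be tested. In edgeR's quasi-likelihood test at an adjusted p under 0.05, 33 of the 100 were lower and 38 higher in N0 than in N1.5, against 31.2% lower and 26.6% higher over all tested transcripts. With library totals, the scaling on which the 157 were chosen, 42 were lower and 29 higher, so the balance of directions turned with the scaling. With TMM the median log2 fold change of the 100 was 0.02. In 7 of the 107 (6.54%), N0 was at 33.3% of N1.5 or less, which held for 8.40% of all transcripts. Across all transcripts at 5 CPM or more with nitrate, pairs with the same gene name and another last number had a median r of 0.12 over the 12 libraries, and all pairs had 0.13. The sum over a gene name, which joins such transcripts, met the rule for 96 gene names.

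Among the transcripts that share a gene name with a member, the largest rise was that of TRINITY_DN6791_c0_g1_i2_2. It had 217, 191 and 219 CPM in N0, 42.6, 43.6 and 29.99 CPM in N0.5, 51.8, 45.1 and 50.7 CPM in N1, and 13.7, 12.8 and 20.4 CPM in N1.5. All N0 libraries were above all others. The log2 fold change against N1.5 was 3.92 ± 0.19 (SE) after TMM scaling, at an adjusted p of 6.94e-10 by edgeR, and 3.74 with library totals. The next was TRINITY_DN4778_c0_g1_i2_1, with 110, 100.2 and 108 CPM in N0, 44.4, 43.0 and 42.1 CPM in N0.5, 13.1, 13.6 and 12.9 CPM in N1, and 12.01, 10.4 and 16.2 CPM in N1.5. It was higher in both N0 and N0.5 than in N1.5. For N0 the log2 fold change was 3.22 ± 0.13 (SE) after TMM scaling, at an adjusted p of 1.15e-10 by edgeR, and 3.04 with library totals. Since names of different series need not denote the same gene, these 2 are not read as isoforms of the members.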

How the data were processed

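RNA of 12 libraries in 4 groups of 3 was analysed from the authors' tables. The deposited counts are estimated counts per assembled transcript, 2.94% of them whole (within 0.001). The authors also deposited FPKM, scaled to transcript length and a library total. Lengths were derived from the FPKM with the sums of estimated counts as that total, which may not be the one the authors used. The submitters' processing notes name Bowtie2 2.4.5, DESeq and Trimmomatic 0.40 without saying what each did. How transcripts were assembled and counted is not given in the sources used here. Reads shared between near-identical transcripts could have been split, which makes single transcripts uncertain.

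Members were chosen from CPM on library totals. Estimated counts were rounded and tested with the quasi-likelihood test of edgeR 4.0.16 in R 4.3.3 (TMM, filterByExpr, 15429 transcripts tested, 1 fit over all 4 groups, two-sided, Benjamini-Hochberg adjustment over all tested transcripts). DESeq2 1.42.0 was an alternative. The standard error is the log2 fold change divided by the square root of F. Correlations over libraries used log2(CPM + 0.5). A transcript counted as nearly only in N0 at 5 CPM or more there and at least 50 times each other mean. The named transcripts are the most abundant member, the member with the deepest fall at 20 CPM or more, and the 2 largest rises among transcripts called higher in N0, at 5 CPM or more there, that share a gene name with a member. Other members were picked for description by rank after their values were seen. The members, lists and tests were chosen with earlier results of these data known. The test was tried on simulated data.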

Additional observations from a re-analysis of the deposited data

How the results depend on the processing

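The number of members, 157, was 145 to 168 with 1 library left out. It was 102 with RLE size factors, 78 with a steadiness limit of 1.2 times, 425 and 81 with N0 at 50 and 25% of each mean or less, 91 with the N0 limit applied to every library, and 96 for sums by gene name. It was 135, of which 121 were members, without the 4 libraries with the largest trace of transcripts found nearly only in N0 (N0.5 replicates 1 and 2, N1 replicate 1 and N1.5 replicate 3, at a median of 0.777 to 1.24% of the N0 level), a choice made after seeing the data. All 157 were again called lower in N0 than in each other group under RLE, library totals, no filter, DESeq2, fits of 2 groups and each left-out library. The choice used these same contrasts and libraries, so nothing is read from this or from the replicate block below. In the main fit 31.2, 29.7 and 33.1% of all tested transcripts were called lower in N0 than in N1.5, N1 and N0.5. The members called in N1 against N1.5 numbered 2 to 9 with 1 library left out, against 10. Of transcripts that share a component name with a member, 63 were called lower and 71 higher in N0 than in N1.5, 83 and 51 with library totals, which turns the balance, and 14 and 17 when the last number also had to match, a smaller set added after seeing the data. The named transcripts kept their direction and call in all alternatives run. They were chosen by this same difference between N0 and N1.5 in the same libraries, so nothing is read from this. Replicate numbers are not shown to pair libraries: same-numbered libraries had correlations of -0.11 to 0.38, and 7 of 12 libraries correlated best with their own number. With the number as a replicate block, 157 members were called lower in N0 than in N1.5, 55 were called in N0.5 against N1.5, 57 in N0.5 against N1 and 9 in N1 against N1.5, with 33 lower and 37 higher among transcripts that share a gene name.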
